A study of Oedaleus asiaticus with 9 samples.

Results

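The miR-275 and miR-305 cluster was followed through female development of *Oedaleus asiaticus*, a grasshopper. Its members were taken by name from a table of small RNA read counts and are 5 of its 365 entries: miR-275-y, miR-275-z, miR-305-x, miR-305-y and miR-305-z. The table lists 1 further entry of these families, miR-275-x, which is not a member and is given beside them where the 2 miR-275 forms are described; it was added after its values were seen. What the suffixes x, y and z stand for is not stated, and they are kept as written. Libraries came from 3rd-instar nymphs, 5th-instar nymphs and adults, all female, 3 days old and fed normally. Each stage has 3 libraries, which makes 9. No body part is named, so the label could not be checked against tissue markers, and in such bulk RNA fewer cells of a type and less RNA per cell cannot be told apart. Whether the replicates are separate animals is not stated, and p-values therefore cover only the spread between these libraries, which may be technical.

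A miRNA is cut from a hairpin whose arms can each give a mature strand, and bases 2 to 8 of that strand, the seed, select its target messenger RNAs. In flies and mosquitoes, miR-275 and miR-305 are neighbours read as a single transcript, with the main miR-275 strand from the 3′ arm of its hairpin and the main miR-305 strand from the 5′ arm. Aedes aegypti females depleted of miR-275 fail to digest a blood meal and to mature eggs. In the fly gut, miR-305 acts on Notch and insulin signalling in stem cells and links their division to nutrition.

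The sequences of the 5 entries show which are length variants and which are different molecules. They are printed 5′ to 3′ with T for U, as the table gives them, and capitals mark the seed.
miR-275-y: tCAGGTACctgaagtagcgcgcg
miR-275-z: tCAGGTACctgaagtagcgcgcgtt
miR-305-x: aTTGTACTtcatcaggtgctctgg
miR-305-z: cTTTGTACtataccaggtgctc
miR-305-y: cCTGTTGGagtgcaattga
miR-275-z (25 nt) is miR-275-y (23 nt) with 2 further bases at its 3′ end, so both carry the seed CAGGTAC. Reads of these nested entries could be assigned to either. The miR-305 entries are 24, 19 and 22 nt long for x, y and z, and no 2 of them share a seed. miR-305-z is not a trimmed form of miR-305-x: shifted by 1 base, it has the same base at 17 of 21 positions, shown in capitals.
miR-305-z against miR-305-x: ctTTGTACTatAcCAGGTGCTC
Its seed therefore overlaps that of miR-305-x, moved by 1 position. No miR-305 entry shared its seed with any other of the 365 entries.

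Facing each other without gaps, miR-305-x and miR-305-y matched best over 16 positions, of which 13 were Watson-Crick pairs, 2 were G-T pairs and 1 was unpaired. The same comparison of miR-305-z with miR-305-y left 4 of 17 positions unpaired, and that of miR-305-x with miR-275-y left 7 of 23. miR-275-x, which faced miR-275-y with 12 Watson-Crick pairs, 4 G-T pairs and 3 unpaired positions out of 19, also shares an 11 nt run with miR-305-x, marked in capitals and found in 2 of the 365 entries.
miR-305-x: attgtacttCATCAGGTGCTctgg
miR-275-x: tgctgCATCAGGTGCTagtgact
The first 12 bases of miR-275-y and miR-275-z equal their own reverse complement, the longest length of such a stretch in the table. That length was reached by 3 of the 365 entries (0.822%): these nested entries and a predicted entry whose stretch has another sequence.
miR-275-y: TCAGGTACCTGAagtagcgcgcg
No reference genome was used, so it was not tested whether the entries come from neighbouring hairpins in this species.

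Totals over all listed entries ran from 1462586 counts (adult 1) to 5309504 counts (3rd instar 3). A predicted 18 nt entry took 59.1% to 74.0% of each library, and levels are given as normalised CPM, each count over the library total after TMM scaling, which draws on many entries rather than that one. A read covers a whole small RNA, so levels of entries were compared without dividing by length. Whether different sequences were ligated and copied equally well was not tested, so levels of different entries compare counts, not molecules. Each member had counts in every library. At 3 counts, a library's level would be 0.652 to 1.98 CPM, counting error only.

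By counts, miR-305-x was the leading form of the cluster. It had 7844, 6010.3 and 6446 CPM in the 3rd instar, 7292, 9369.8 and 7854 CPM in the 5th instar, and 7559, 6078 and 6793 CPM in adults. The highest library was 5th instar 2, and the 3 stages overlapped. It ranked 8 to 12 among all 365 entries in the 9 libraries. In the authors' deposited TPM values, which are not scaled between libraries, it ran over the 9 libraries from 5064 to 10030.1.

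miR-275-y, the main miR-275 form, had 2304, 2434 and 2522 CPM in the 3rd instar, 2437, 2056 and 2581 CPM in the 5th instar, and 1782, 2379 and 2466 CPM in adults. The lowest library was adult 1, and again the stages overlapped. Its rank was 17 to 21 of 365. Its coefficient of variation over the 9 libraries was 10.9%, against 14.7% for miR-305-x and a median of 17.7% over the 28 entries of at least 1000 CPM, among which it was the 6th least variable. miR-275-x was at 1690 ± 191, 1543 ± 224 and 1414 ± 147 CPM in the 3rd instar, 5th instar and adults (SD, n = 3 each), the same order of size as miR-275-y. Of all miR-275 counts, miR-275-y held 59.8% ± 3.71 and miR-275-x 39.8% ± 3.67 over the 9 libraries (SD), while of all miR-305 counts miR-305-x held 99.84% ± 0.164.

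The other 3 members were rare. miR-275-z had 14.4, 15.7 and 22.9 CPM in the 3rd instar, 14.5, 7.60 and 10.1 CPM in the 5th instar, and 15.9, 10.3 and 11.1 CPM in adults. It was highest in 3rd instar 3 and lowest in 5th instar 2, and the stages overlapped. Between 110 and 271 counts of miR-275-y were found per count of this longer form. miR-305-z, from 4 to 95 counts in a library, had 3.68, 1.49 and 2.64 CPM in the 3rd instar, 10.2, 4.27 and 4.13 CPM in the 5th instar, and 10.6, 29.5 and 6.08 CPM in adults. All adults lay above all libraries of the 3rd instar, and the 5th instar overlapped with adults. Adult 2 stood apart: its exact Poisson 95% interval was 23.9 to 36.1 CPM, against 6.05 to 17.2 CPM in adult 1 and 4.04 to 8.79 CPM in adult 3. miR-305-y, which left 1 position unpaired when facing miR-305-x, rested on 2 to 19 counts and had 1.003, 2.24 and 1.54 CPM in the 3rd instar, 3.39, 4.75 and 3.76 CPM in the 5th instar, and 1.32, 5.91 and 2.39 CPM in adults. It too was highest in adult 2, and its adults overlapped with both nymphal stages.

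**Figure D1:**
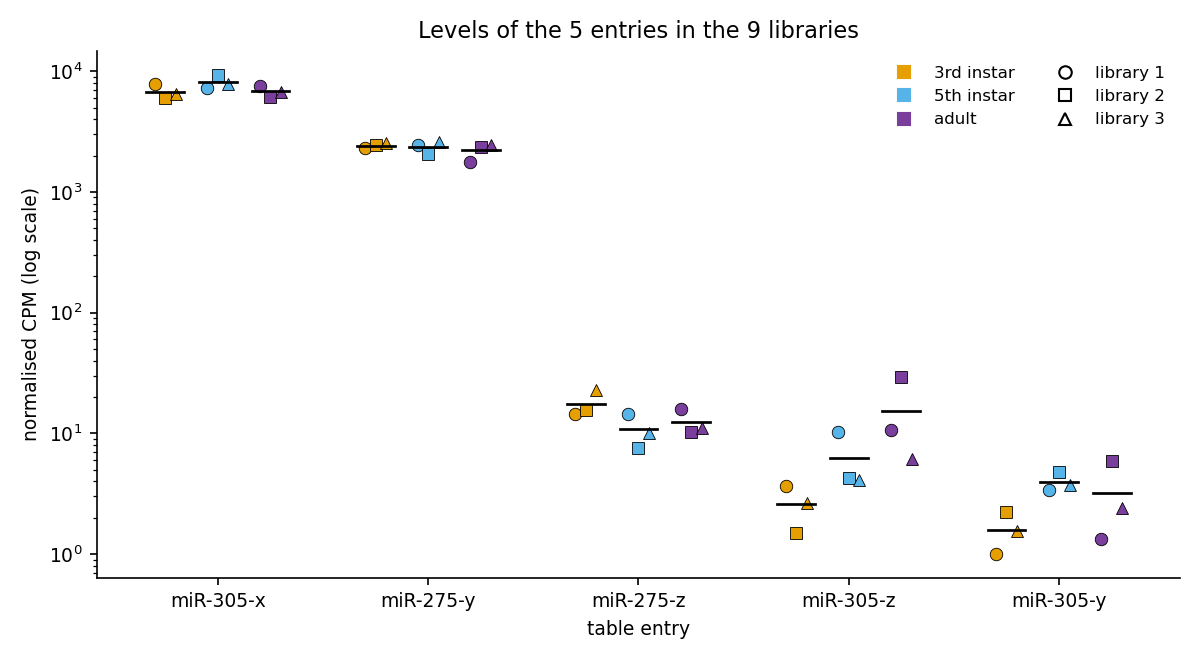
Normalised CPM (log axis) of each member in each library, with the stages side by side in colour, libraries 1 to 3 as circles, squares and triangles, and a bar at each stage mean. miR-305-x and miR-275-y lie above 1000 CPM at every stage, while the rare forms lie between 1.003 and 29.5 CPM, with adult 2 highest for miR-305-z.

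The order of levels was miR-305-x, miR-275-y, miR-275-z, miR-305-z and miR-305-y by the mean over 9 libraries. The first 3 kept this order in every library. Within the rare forms neighbours were not separated: miR-305-z exceeded miR-275-z in adult 2, and miR-305-y exceeded miR-305-z in 3rd instar 2 and 5th instar 2. The stage means of miR-305-z were 2.60 ± 1.09, 6.19 ± 3.45 and 15.4 ± 12.4 CPM from the 3rd instar to adults, and those of miR-305-y were 1.59 ± 0.619, 3.97 ± 0.703 and 3.21 ± 2.40 CPM (SD, n = 3 each).

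Ratios within a library compare the counts of the forms without any scaling, and are not ratios of molecules. For each count of miR-275-y there were 3.40, 2.47 and 2.56 counts of miR-305-x in libraries of the 3rd instar. The values were 2.99, 4.56 and 3.04 in the 5th instar and 4.24, 2.56 and 2.76 in adults. One library of each stage stood above the other two, namely 3rd instar 1, 5th instar 2 and adult 1. The mean log2 ratio of miR-275-y to miR-305-x was, from the 3rd instar to adults, -1.47 ± 0.25, -1.79 ± 0.34 and -1.63 ± 0.39 (SD, n = 3 each). By an exact permutation test over all 1680 arrangements of the libraries the stages did not pass (p = 0.536, adjusted p = 0.536 over the 4 ratios and shares tested). The SD of this ratio over the 9 libraries was 0.32 on the log2 scale and 0.34 within stages. In other clusters that insects share, the same SD over 9 libraries was 0.14 to 0.20 for pairs in the let-7, miR-100 and miR-125 cluster and 0.31 to 0.59 for pairs in the miR-34, miR-277 and miR-317 cluster, taking the most abundant entry of each family. It was 0.33 to 0.68 in the miR-9, miR-79 and miR-306 cluster and 0.11 to 0.28 in the miR-2, miR-13 and miR-71 cluster. It was 0.19 to 0.69 in the miR-12, miR-283 and miR-304 cluster, where miR-304-z averaged 3.19 CPM, and 0.16 for miR-750 and miR-1175. Within stages the SDs of these 6 clusters ran from 0.085 to 0.36 outside the pairs with miR-304-z, which had 0.57 and 0.52. These are descriptions of the spread and were not tested against each other.

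miR-305-z took 0.0468%, 0.0248% and 0.0410% of all miR-305 counts in libraries of the 3rd instar. Its shares were 0.139%, 0.0456% and 0.0526% in the 5th instar and 0.140%, 0.483% and 0.0894% in adults. Adult shares lay above all 3rd instar shares and overlapped those of the 5th instar. In adult 2 the Wilson 95% interval was 0.395% to 0.590%, above the point values of the other 8 libraries. The exact permutation test over the 3 stages passed before adjustment (p = 0.0429) but not after it (adjusted p = 0.171). Without adult 2, the mean share in adults less that in the 3rd instar was 0.0771 percentage points in place of 0.1999, with an adjusted exact permutation p of 0.236. Without adult 3 it was 0.274, and the test passed (adjusted p = 0.0286). The share of miR-275 counts in miR-275-z was 0.426% ± 0.0957, 0.275% ± 0.0860 and 0.347% ± 0.114 from the 3rd instar to adults (SD, n = 3 each, exact permutation p = 0.239, adjusted p = 0.438). The log2 ratio of miR-305-y to miR-305-x, with 0.5 added to each count, was -11.97 ± 0.72, -10.94 ± 0.052 and -11.18 ± 1.11 in the same order (exact permutation p = 0.329, adjusted p = 0.438).

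**Figure D2:**
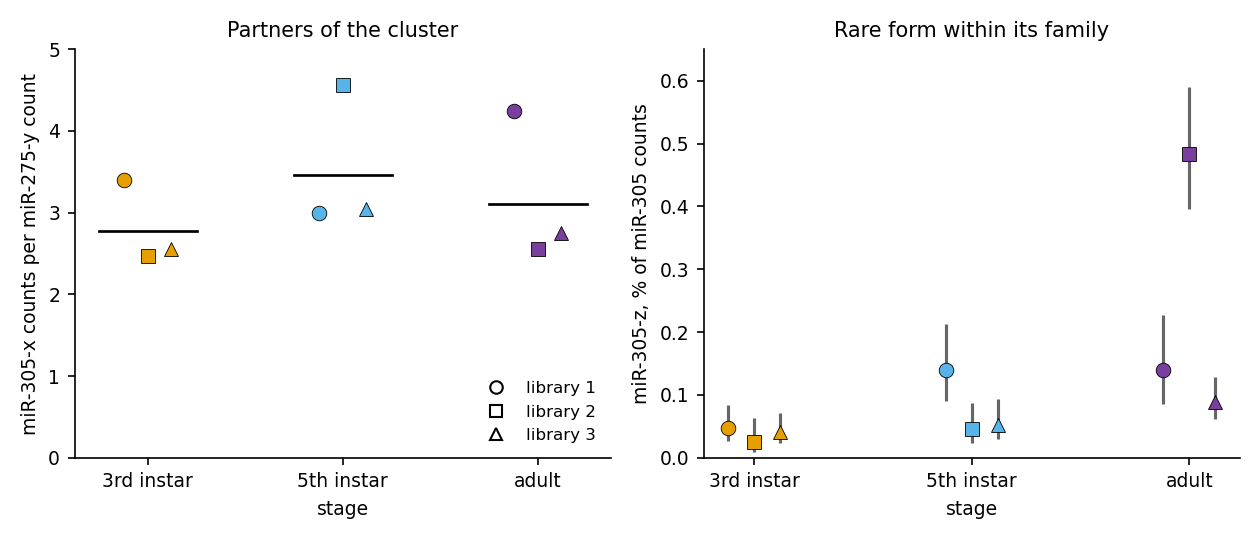
Left, counts of miR-305-x per count of miR-275-y in each library by stage, with the geometric mean as a bar. Right, miR-305-z as a percentage of all miR-305 counts with Wilson 95% intervals, where adult 2 lies at 0.483% and all other libraries at or below 0.140%.

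The 3 stages were then compared in pairs to ask which forms differ between young nymphs, late nymphs and adults. All 5 members were among the 179 entries tested, which had to reach 3.29 CPM of the unscaled total in at least 3 libraries. From the 3rd instar to adults, miR-305-y reached this in 0, 3 and 1 libraries and miR-305-z in 1, 3 and 3, so these 2 passed through the stages where they were high. A call needed an adjusted p under 0.05 (Benjamini-Hochberg, over all 179) and an absolute log2 fold change above 1.

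Between the 5th and the 3rd instar, edgeR called 0 of the 5 members, against 1.68% of all tested entries (2.23% by the adjusted p alone). An unadjusted p under 0.05 was reached by 0 of the 5 and by 17.3% of all tested entries. DESeq2 called 0 of the 2 members to which it gave an adjusted p, and 4 of the 179 entries it was run on. A fold above 1 was seen for 3 of the 5 members and 50.3% of all tested entries. miR-305-x averaged 8172 ± 1075 CPM in the 5th instar and 6767 ± 958 CPM in the 3rd instar, a fold of 1.21 (95% interval 0.953 to 1.53, adjusted p = 0.353). miR-275-y averaged 2358 ± 272 CPM in the 5th instar and 2420.2 ± 110 CPM in the 3rd, a fold of 0.974 (0.776 to 1.22, adjusted p = 0.885). The intervals of these abundant forms lay within 2-fold in either direction. The rare forms had wide intervals: folds were 2.33 for miR-305-z (0.859 to 6.30, adjusted p = 0.327), 2.47 for miR-305-y (0.860 to 7.08, adjusted p = 0.322) and 0.608 for miR-275-z (0.355 to 1.04, adjusted p = 0.287). For miR-305-z and miR-305-y the stages did not overlap, which held for 29.1% of all tested entries. The nearest libraries were 3rd instar 1 and 5th instar 3 for miR-305-z, at 11 counts each. For miR-305-y they were 3rd instar 2 and 5th instar 1, at 6 and 7 counts. The Poisson 95% intervals of these nearest libraries overlapped for both entries.

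Between adults and the 5th instar, across the final moult, edgeR again called 0 of the 5 members, against 1.12% of all tested entries (1.68% by the adjusted p alone). An unadjusted p under 0.05 was reached by 0 of the 5 and by 10.1% of all tested entries. DESeq2 called 0 of the 5, and 2 of the 179 entries it was run on. A fold above 1 was seen for 2 of the 5 members and 58.1% of all tested entries. miR-305-x averaged 6810 ± 741 CPM in adults and 8172 ± 1075 CPM in the 5th instar, a fold of 0.833 (0.657 to 1.06, adjusted p = 0.472). miR-275-y averaged 2209 ± 372 CPM in adults and 2358 ± 272 CPM in the 5th instar, a fold of 0.937 (0.746 to 1.18, adjusted p = 0.835). Folds of the rare forms were 2.50 for miR-305-z (0.982 to 6.38, adjusted p = 0.439), 0.844 for miR-305-y (0.310 to 2.29, adjusted p = 0.904) and 1.14 for miR-275-z (0.662 to 1.97, adjusted p = 0.853). All 5 members overlapped between the stages, while 14.0% of all tested entries lay apart.

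Between adults and the 3rd instar, edgeR called 1 of the 5 members, miR-305-z, against 3.91% of all tested entries (2.23% higher, 7.82% by the adjusted p alone). It was also the only member with an unadjusted p under 0.05, reached by 35.8% of all tested entries. It rose 5.82-fold in adults (95% interval 2.18 to 15.5), a log2 fold change of 2.54 ± 0.65 (SE, edgeR adjusted p = 0.0282), and all 3 adult libraries lay above all 3 libraries of the 3rd instar, while 31.3% of all tested entries had stages that did not overlap. The call depended on single libraries: without adult 2 the log2 fold change was 1.64 (adjusted p = 0.106), and without 3rd instar 1, 2 or 3 it was 2.88, 2.22 or 2.57 (adjusted p = 0.112, 0.142 and 0.110). It also ended with a stricter filter of 10 CPM in 3 libraries (adjusted p = 0.0528). The test over all 3 stages gave miR-305-z an adjusted p of 0.0792 and called 0 of the 5 members, against 4.47% of all tested entries. The same edgeR test gave an unadjusted p under 0.05 to 1 member, miR-305-z, against 24.6% of all tested entries. DESeq2 called that member (adjusted p = 0.0232), among 23 of the 179 entries it was run on, where edgeR called 8.

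The abundant forms had narrow intervals in this comparison. miR-305-x averaged 6810 ± 741 CPM in adults and 6767 ± 958 CPM in the 3rd instar (SD, n = 3 each), a fold of 1.006 (0.794 to 1.28, edgeR adjusted p = 0.977). miR-275-y averaged 2209 ± 372 CPM in adults and 2420.2 ± 110 CPM in the 3rd instar, a fold of 0.913 (0.727 to 1.15, adjusted p = 0.550). Folds above 1.28 or below 0.727 lay outside both intervals. A fold above 1 was seen for 3 of the 5 members and 54.2% of all tested entries. miR-305-y had a fold of 2.08 (0.732 to 5.92, adjusted p = 0.283) and miR-275-z one of 0.694 (0.407 to 1.18, adjusted p = 0.290). The 3 comparisons share libraries and are not independent of each other.

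**Figure D3:**
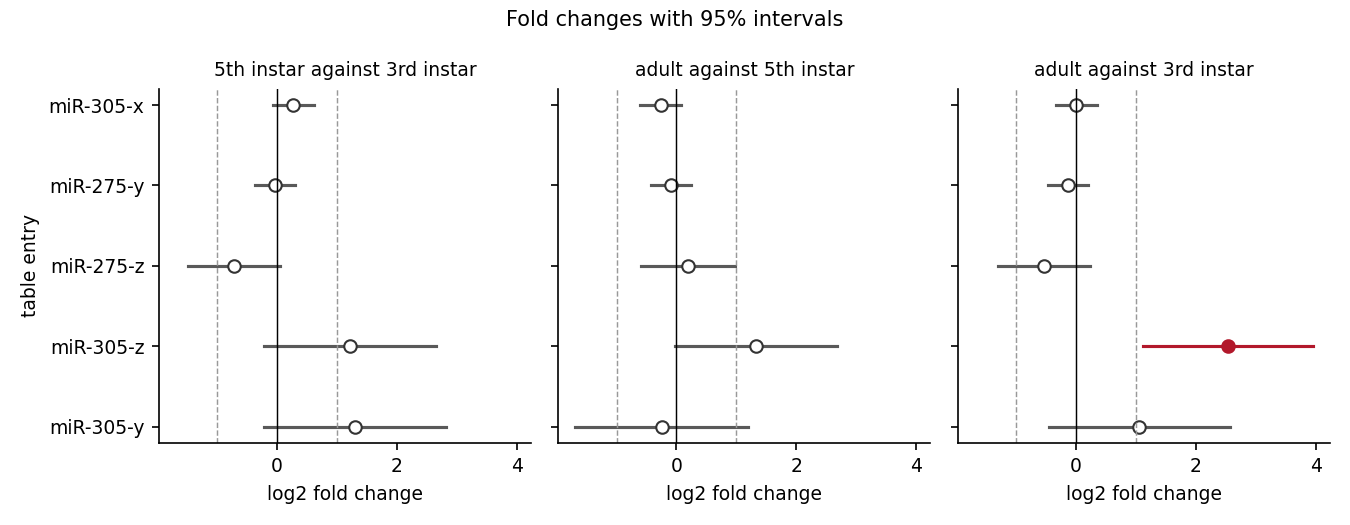
Log2 fold changes of the 5 members in the 3 comparisons, the later over the earlier stage, with 95% intervals from edgeR and dashed lines at a log2 fold change of 1 and -1. The filled red point is the 1 called value, miR-305-z between adults and the 3rd instar, and the intervals of miR-305-x and miR-275-y lie within the dashed lines in all 3 comparisons.

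The seed of miR-275-y, CAGGTAC, was carried by 4 entries in all, the others being miR-275-z, miR-306-x and miR-306-z. In flies, miR-306 lies in the miR-9 and miR-79 cluster, apart from miR-275. Past the seed the mature strands differ.
miR-306-x: tCAGGTACtgagtgactctgaga
miR-306-x was the more abundant carrier, at 6903 ± 536, 7165 ± 437 and 7135 ± 877 CPM in the 3rd instar, 5th instar and adults (SD, n = 3 each). Between adults and the 3rd instar its log2 fold change was 0.048 ± 0.14 (SE, edgeR adjusted p = 0.838). The 4 entries summed to 9341 ± 466, 9534 ± 609 and 9356 ± 509 CPM in the same order. The miR-275 entries made up 26.2% ± 2.17, 24.8% ± 2.02 and 23.9% ± 5.09 of that sum. The lowest share, 18.1%, was in adult 1, the library with the lowest miR-275-y and the highest miR-306-x.

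**Figure D4:**
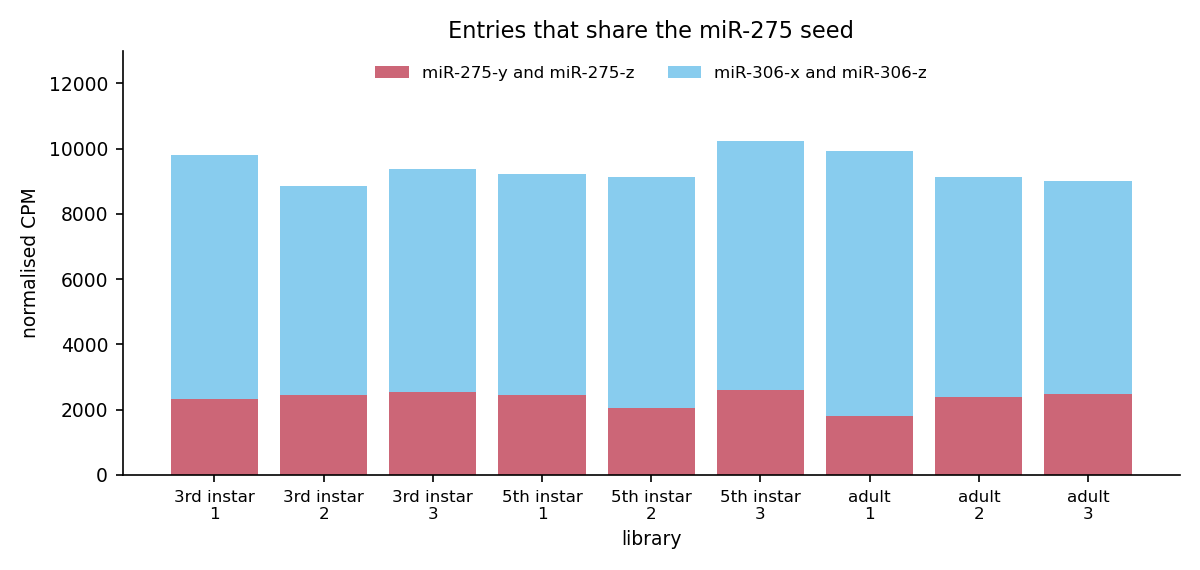
Normalised CPM of the 4 entries that carry the seed of miR-275-y, stacked for each library from the 3rd instar to adults, with the miR-275 entries at the bottom and the miR-306 entries above. The sums run from 8865 to 10235 CPM, and miR-306-x makes up most of each bar.

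Likeness of pattern was measured as the root mean square difference of log2(CPM + 1), each centred on the entry's own mean over the 9 libraries, among 124 entries of at least 10 CPM outside both families. It was not divided by an entry's spread, so entries that vary little lie near each other whether or not they move together. The entries most like miR-305-x were miR-13-y (0.13), miR-306-x (0.16) and miR-2-y (0.17), against a median of 0.40 over the 124. Its cluster partner miR-275-y stood farther off, at 0.30. The entries most like miR-275-y were miR-279-y (0.18), miR-2-y (0.19) and miR-276-y (0.19), with miR-275-x at 0.21 and a median of 0.38. For the rare miR-275-z the nearest were miR-72-x (0.26), miR-317-z (0.27) and miR-279-z (0.30), against a median of 0.52. miR-305-z and miR-305-y lie below 10 CPM on average and were not compared in this way. These values describe 9 libraries that share their scaling, and the entries were chosen for their likeness.

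Other miRNAs of female reproduction in insects were set beside the cluster. Of 10 such families 6 were analysed, with 14 entries, all tested. Between adults and the 3rd instar, 1 of the 14 was called, miR-277-y, which acts on branched-chain amino acid breakdown in flies, and 10 of the 14 had a fold above 1. Over all tested entries 3.91% were called and 54.2% had a fold above 1. The median log2 fold change was 0.15, against 0.050 over all 179. miR-277-y was at 4276 ± 1330 CPM in adults and 1717 ± 112 CPM in the 3rd instar (log2 fold change 1.32 ± 0.20, edgeR adjusted p = 0.00123). miR-8-x, of a family that acts in the mosquito fat body during egg formation, was at 896 ± 344 CPM in adults and 560 ± 54.5 CPM in the 3rd instar (log2 fold change 0.68 ± 0.24, edgeR adjusted p = 0.0991). Between the same stages miR-8-y and miR-8-z had log2 fold changes of 0.29 and -0.063 (edgeR test over all 3 stages, adjusted p = 0.453 and 0.637). Between adults and the 5th instar 1 of the 14 was called, again miR-277-y, and 10 had a fold above 1, against 1.12% and 58.1% of all tested entries. Between the 5th and the 3rd instar 0 of the 14 was called by edgeR, against 1.68% of all tested entries. An unadjusted p under 0.05 was reached by 1 of the 14, let-7-x, and by 17.3% of all tested entries.

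Of the families tied to gut, insulin signalling and nutrients, 13 entries were present and 12 tested. Between adults and the 3rd instar 1 of the 12 was called, miR-277-y, against 3.91% of all tested entries, and miR-14-y, a regulator of fat and insulin metabolism in flies, passed on the adjusted p without reaching the fold limit. It was at 5749 ± 159 CPM in adults and 8855 ± 1269 CPM in the 3rd instar (log2 fold change -0.62 ± 0.15, adjusted p = 0.0262). Its log2 fold change was -0.65 ± 0.15 between the 5th and the 3rd instar (edgeR adjusted p = 0.0484). Between adults and the 5th instar it was 0.022 ± 0.15 (adjusted p = 0.969). The list's median log2 fold change was 0.19. Of 35 tested entries of other miRNA clusters that insects share, 1 was called between adults and the 3rd instar, miR-277-y, against 3.91% of all tested entries. By the edgeR adjusted p alone, miR-283-x was also higher (log2 fold change 0.66 ± 0.16, adjusted p = 0.0262) and miR-9-z lower (-0.95 ± 0.13, adjusted p = 0.000626). This limit was passed by 7.82% of all tested entries. The median log2 fold change of the 35 was 0.053.

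Sums of marker entries of other tissues differed in range between the stages. The 6 muscle marker entries summed to 8706 to 11444 CPM in the 3rd instar, 9531 to 10547 CPM in the 5th instar and 11898 to 16727 CPM in adults. Of the 4 tested, 0 were called in each comparison. The shares over all tested entries were 1.68% (5th against 3rd instar), 1.12% (adult against 5th) and 3.91% (adult against 3rd). The 6 entries of the families listed for neurons (miR-124, miR-9 and miR-137) summed to 6168 to 7397 CPM in the 3rd instar, 5234 to 5856 CPM in the 5th instar and 3490 to 3838 CPM in adults. Of the 5 tested, 0 were called, and miR-9-z was lower in adults by the adjusted p alone. Most of this sum was miR-9-z, which averaged 6302, 5242 and 3261 CPM from the 3rd instar to adults. Against the 5th instar, 4 of the 5 tested were lower in adults. The other, miR-124-y, was higher (log2 fold change 0.66 ± 0.67, SE, edgeR adjusted p = 0.734). Adult 2, the library highest for miR-305-z, had 11898 CPM of the muscle list and 3509 CPM of the neuron list. These were the lowest adult sum for the muscle list and a value between the other adults for the neuron list. Among 2 families abundant in the midgut of mosquitoes, miR-1175 summed to 744 to 904 CPM in the 3rd instar, 693 to 1025 CPM in the 5th instar and 611 to 818 CPM in adults. The 2 entries of vertebrate families summed to 36.6 to 186 CPM in the 3rd instar, 9.50 to 28.6 CPM in the 5th instar and 15.9 to 30.1 CPM in adults. Of these, miR-143-y averaged 116 ± 75.2, 20.3 ± 9.40 and 19.5 ± 7.31 CPM from the 3rd instar to adults (SD, n = 3 each). Against the 3rd instar its log2 fold change was -2.50 in the 5th instar and -2.56 in adults (edgeR adjusted p = 0.166 and 0.0710). The other entry, miR-21-x, averaged 11.7, 1.11 and 1.38 CPM from the 3rd instar to adults. Set against the 3rd instar, it was called lower in the 5th instar (edgeR adjusted p = 0.0484) and in adults (adjusted p = 0.0262). Over all tested entries 1.68% and 3.91% were called in these comparisons. The other midgut family, miR-1174, and the ovary families miR-989 and miR-309 were not analysed here. The part of any of these in the rise of miR-305-z was not tested.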

How the data were processed

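Small RNA fragments were cut from a gel of total RNA, copied after adapter ligation and sequenced from a single end, per the labels' protocols. The sources used here name no aligner, counting tool or genome build. The deposited table holds, per the file headers, the authors' raw read count of each miRNA entry in each library and the authors' TPM values, which within a library are proportional to the counts and so were not divided by length. Counts were tested with edgeR 4.0.16 in R 4.3.3 (TMM factors, expression filter by stage, robust quasi-likelihood fit of 3 stage means over 9 libraries), on the whole table of 365 entries, with Benjamini-Hochberg adjustment over the 179 tested. A standard error is the absolute log2 fold change over the square root of F. Ratios and shares of forms were tested by exact permutation in Python 3.11.15, adjusted over 4. Depth was 1462586 to 5309504 counts. Poisson and Wilson intervals cover counting error only, while the edgeR intervals include the spread between libraries. Reads carry no molecular identifiers, so copies of the same molecule could not be told apart. The procedure was tested on simulated counts. Correlations of same-numbered libraries between stages ran from -0.22 to 0.41, with 5 of 9 above 0.1, which does not settle whether they pair. The main tests used no block, and a replicate block was run as an alternative.

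Alternatives were DESeq2 1.42.0, other scalings and filters, stage pairs alone, the block, families summed, each library left out and, for stage pairs, the adjusted p without the fold limit. Members, lists and the rule for named entries (the 5 members, the 3 entries most like each of them, and of each list the called and the 2 with the smallest p, with a selection of these printed) were chosen with earlier results of these data known.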

Additional observations from a re-analysis of the deposited data

How the results depend on the processing

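Of 267 member results between stage pairs under alternatives, 243 kept their direction and their side of the threshold. The alternative of the adjusted p alone reuses the main fold changes, so it could change only the side of the threshold. The test over all stages has no direction, and 78 of its 81 recomputed member results kept their side of the threshold. The log2 fold change of miR-305-z between adults and the 3rd instar stayed positive in all 18 alternatives (1.64 to 2.96 leaving out 1 library, adjusted p 0.0245 to 0.142) and lost its call with the stricter filter (2.44) and without adult 2 or any 3rd instar library; with the replicate block it was 2.37 (adjusted p = 0.0479). Its test over all stages passed with DESeq2 (adjusted p = 0.0232), library totals alone (0.0395) and no filter (0.0338). Values near 0 changed sign, and the cause was not tested: miR-305-x between adults and the 3rd instar was -0.042 with DESeq2, -0.042 with RLE factors, -0.0033 with no filter, -0.066 with the stricter filter, -0.0026 with only these stages and -0.14 to 0.17 leaving out 1 library. With library totals alone miR-275-y was 0.26 between the nymphal stages and 0.067 between adults and the 3rd instar, where this scaling moved the median of all entries by 0.29 and 0.19. Leaving out 1 library, miR-275-y ran from -0.075 to 0.086 (5th against 3rd), -0.21 to 0.022 (adult against 5th) and -0.19 to 0.0085 (adult against 3rd), and between adults and the 5th instar miR-275-z from -0.028 to 0.43 and miR-305-y from -1.004 to 0.026. Called entries over the whole table numbered 3 between the nymphal stages (1 with totals alone, 1 to 3 leaving out 1 library), 2 between adults and the 5th instar (1 with totals alone, 0 with only these stages, 0 to 2), 7 between adults and the 3rd instar (15 with DESeq2, 19 with totals alone, 16 of them higher, 14 by adjusted p alone, 3 to 9) and 8 over all stages (23 with DESeq2, 4 to 9). The adult minus 3rd instar difference of the log2 ratio of miR-275-y to miR-305-x was -0.16 (-0.304 to 0.067 leaving out 1 library), and that of the miR-305-z share was 0.1999 percentage points (0.0771 to 0.274), with an adjusted exact permutation p of 0.0286 without adult 3. With the replicate block, call counts stayed within 1.5 times the main ones (2, 2, 7 and 11). DESeq2 gave no adjusted p for miR-275-z, miR-305-y and miR-305-z between the nymphal stages. Depth limits the rare forms, at 2 to 104 counts a library.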
